A study of Mus musculus with 199 samples.

Results

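Mouse liver tumours were compared by how much T cell RNA they held. The groups were chosen by a measured value: each of 50 tumours was ranked by its summed counts of Cd3e, Cd3d and Cd3g, the genes of the CD3 chains that carry the signal of the T cell receptor. The 17 tumours with the highest sum are called T-cell-rich below, the 17 with the lowest T-cell-poor, and 16 lay between. The 50 tumours belong to a series of 199 RNA-seq libraries. All came from male wild-type C57BL/6 mice of an in-house colony that had the carcinogen diethylnitrosamine (DEN) and the ALIOS diet, rich in fat and sugar, a model of liver cancer on a fatty, inflamed liver. None of the 50 tumours carries a drug in its label. In the titles 25 are large and 25 small. A further 15 whole liver tissue libraries are titled DEN ALIOS, with Normal as their treatment label, and 6 libraries of CD3-positive T cells sorted from the liver of untreated DEN ALIOS mice gave reference levels. No animal is named for the whole-tissue libraries. Tumours of 1 mouse can therefore not be recognised, and each p-value reflects only how far these samples spread.

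T cells recognise peptides on major histocompatibility complex (MHC) molecules. Class I molecules show peptides to CD8 T cells and are made by nearly all cells, while class II molecules show them to CD4 T cells and are made mainly by dendritic cells, macrophages and B cells. T cells that are engaged release interferon gamma, which raises class I and class II genes and the chemokines Cxcl9 and Cxcl10 that draw in more T cells through the receptor Cxcr3. Lasting engagement is known for the checkpoint receptors PD-1 (Pdcd1), Lag3 and Tigit, and in the liver this response meets a large resident macrophage pool, the Kupffer cells.

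The class II genes are shown here by the start of a pair of their genes, since the whole family moved together in this comparison. Their promoters are known for a shared module that ends in the Y box, an inverted CCAAT sequence, GATTGG on the gene's strand. The windows are the 110 bases before the RefSeq start (GRCm38.p6) and lie outside the annotated gene, with GATTGG in capitals.

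H2-Eb1, chr17:34305757-34305866, plus strand: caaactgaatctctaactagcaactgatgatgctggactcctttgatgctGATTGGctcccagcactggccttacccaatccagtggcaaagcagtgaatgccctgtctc

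H2-Aa, chr17:34287824-34287933, minus strand: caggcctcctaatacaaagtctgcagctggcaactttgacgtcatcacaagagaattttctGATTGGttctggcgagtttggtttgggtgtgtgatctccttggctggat

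The motif began 60 bases before the start of H2-Eb1 and 49 before that of H2-Aa. Of the 10 class II genes listed, 7 had a window of this length, and only the pair shown lies wholly outside its gene in the GENCODE annotation. Of the 7, 6 held GATTGG on the gene's strand, against 4.91% of 32851 windows of the same length (9.25% on either strand). H2-DMa was the exception. A match describes the letters and is not a measured binding site.

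The Cd3 sum of the T-cell-rich tumours ran from 4.15 to 20.4 CPM (counts scaled to 1000000 gene counts per library), with a median of 7.68. In the T-cell-poor tumours it ran from 0.919 to 1.98, with a median of 1.53, so the medians differed 5.03-fold. These values chose the groups, so the difference between the groups carries no test. Just outside the limits lay 3.79 and 2.01 CPM. The sums rested on 56 to 391 counts in the rich and 14 to 33 in the poor tumours. The lowest 95% Poisson bound of a rich tumour was 3.19 CPM and the highest bound of a poor tumour 2.87, which covers counting error only. Sorted T cells had a median of 1340 CPM, and the rich and poor medians were 0.573% and 0.114% of it. The sorted cells were sequenced with another library kit, so their levels are set beside those of tumours without a test. In bulk samples fewer T cells and less RNA per T cell cannot be told apart.

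**Figure D1:**
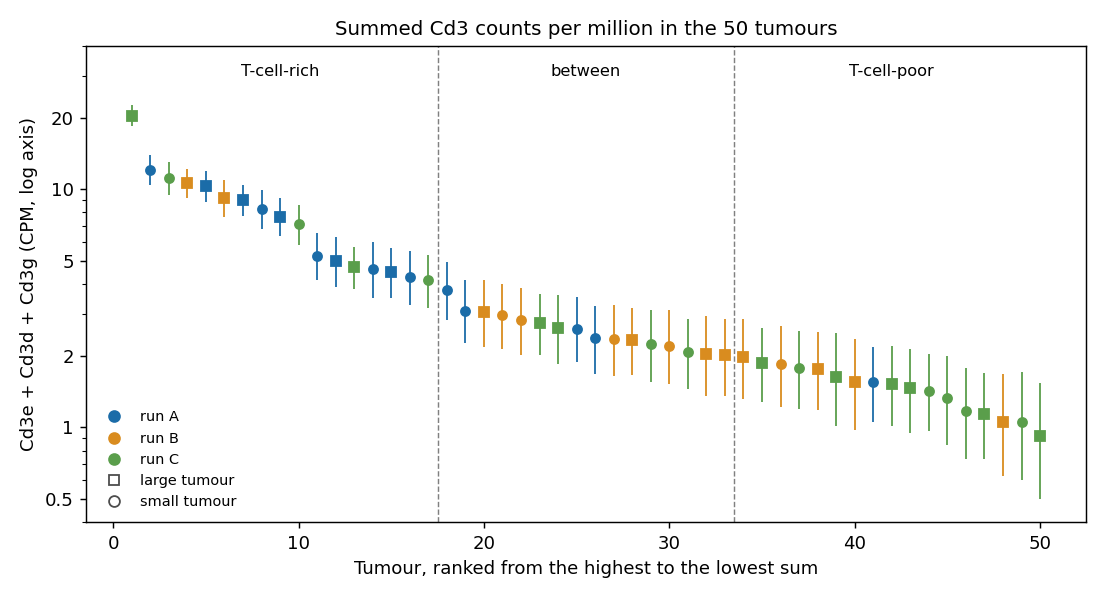
Summed Cd3e, Cd3d and Cd3g CPM (log axis) in each of the 50 tumours, ranked from high to low. Bars are 95% Poisson intervals of the counts, colours are sequencing runs, squares large and circles small tumours, and dashed lines separate the 17 rich, 16 intermediate and 17 poor tumours. One large tumour of run C stood highest at 20.4 CPM, and run A supplied 10 of the 17 rich tumours.

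No difference in T cell content between large and small tumours was detected. The rich group held 9 large and 8 small tumours and the poor group 10 large and 7 small (two-sided Fisher's exact test, p = 1). The median Cd3 sum was 2.33 CPM in large and 2.60 CPM in small tumours. Mean log2 sums over all tumours differed by 0.0445 (large minus small), with p = 0.886 in a two-sided permutation test over all tumours (100000 resamples). Shuffling within runs gave p = 0.897 in the same permutation test. It measured the distance from 0 although sizes were uneven over the runs, so it does not test size apart from run. Within runs A, B and C the difference was 0.78, 0.13 and -0.04. The sequencing run did differ between the groups. Runs are the prefixes in the sample descriptions. Run A held 10 rich, 4 intermediate and 1 poor tumour, run B held 2, 8 and 5, and run C held 5, 4 and 11 (exact test, p = 0.00505). Run was therefore a term of each fit over several runs, and size of each fit over tumours of both sizes. Values from run C alone or without run A are given for the counts over all genes and for the main lists.

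Library depth and RNA measures overlapped between the groups. Gene counts were 12055434 to 20188765 in rich and 12856877 to 21850190 in poor tumours. Mitochondrial genes took 1.45% to 2.70% of gene counts in rich and 1.41% to 2.69% in poor tumours. The summed markers of other cells were less even. B cell markers summed to 6.84 to 42.3 CPM (median 13.3) in rich and 5.68 to 18.4 (median 9.06) in poor tumours. The sum of the natural killer and NKT cell list went the other way. It was 7.55 to 37.6 CPM (median 15.8) in rich and 18.3 to 33.6 (median 27.7) in poor tumours. Most of this sum came from a single gene, Zbtb16, described below with the receptors, so it does not measure how many of these cells were present. None of these sums is corrected for run. Run A, with 10 rich and 1 poor tumour, had natural killer and NKT sums of 7.36 to 18.3 CPM. In run C they were 20.6 to 37.6 CPM in rich and 19.7 to 33.6 in poor tumours, which overlapped. Red cell and platelet markers summed to 116 to 475 CPM (median 269) in rich and 197 to 1257 (median 516) in poor tumours. Neutrophil markers summed to a median of 11.5 and 9.20 CPM and Kupffer cell markers to 433.1 and 432.8 CPM in rich and poor tumours. The part of these other cells in the results below was not tested.

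The count filter kept a gene where enough of the 34 tumours reached 0.653 CPM, in whichever group. A gene below that level in most poor tumours was tested only because the rich tumours carried it, so its fold change is a description. Counts without such genes stand beside the tested lists in which such a gene passed. Of 13875 tested genes, leaving out the 3 Cd3 genes, 658 were higher (4.74%) and 94 lower (0.677%) in T-cell-rich tumours at an adjusted p under 0.05, 5.42% in all. At least a 2-fold difference was fitted for 233 of the higher and 4 of the lower genes. The median log2 fold change of all genes was -0.01. Run C alone, with 5 rich and 11 poor tumours, gave 325 higher and 115 lower genes, and the fit without run A gave 492 and 90. The fit without run C gave only 97 and 15, and the counts per list below do not include that fit. Without the large tumour with the highest Cd3 sum the numbers fell to 307 and 23. Without the 5 tumours highest in B cell markers, 4 of them rich and 1 intermediate, they fell to 170 and 5. These 4 rich tumours rank 1, 2, 3 and 7 by the Cd3 sum. Every value given without these tumours therefore also lacks the highest Cd3 sums, and the 2 cannot be told apart.

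Many of these genes were found in the sorted T cells as well. In sorted T cells 486 of the 658 higher genes, 73.9%, stood at or above their mean level in the rich tumours, against 47.9% of all tested genes. The lists of T cell, cytotoxic and checkpoint receptor genes measure the cells that the Cd3 sum ranked, so they are described without a test. Of 23 T cell genes other than Cd3, 15 had enough counts to be fitted, with a median log2 fold change of 1.94. Cd8b1, a chain of the CD8 coreceptor, did not overlap between the groups, with 1.25 to 6.05 CPM (median 2.82) in rich and 0.177 to 0.847 (median 0.490) in poor tumours. The memory T cell receptor Cxcr6 did not overlap either, at 0.954 to 6.78 CPM (median 2.69) against 0.131 to 0.778 (median 0.526). Not every T cell gene followed. Tcf7, a factor of naive and stem-like T cells, had a log2 fold change of -0.28 ± 0.21 (SE) and the signalling kinase Zap70 one of 0.36 ± 0.33.

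Both T cell coreceptors were higher in the rich group. Cd8a, of CD8 T cells, had 1.41 to 14.2 CPM (median 4.63) in rich and 0.436 to 1.70 (median 0.945) in poor tumours, with 15 of 17 rich tumours above every poor tumour. Cd4, also made by some macrophages, had 0.807 to 6.37 CPM (median 2.53) against 0.224 to 1.31 (median 0.734). The log2 fold changes were 2.46 ± 0.27 and 1.77 ± 0.26. Counted over each group and not corrected for gene length, the Cd8a count was 1.93 times the Cd4 count in rich, 1.04 times in intermediate and 1.17 times in poor tumours, and 1.41 times in liver tissue. Single rich tumours ranged from 0.667 to 4.58 and sorted T cell libraries from 1.13 to 4.36, so these ratios overlapped widely.

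Among the fitted T cell, effector and checkpoint receptor genes, Pdcd1 and Tigit had the largest fold changes. Pdcd1 had 0.664 to 7.72 CPM (median 1.78) in rich and 0.0458 to 0.734 (median 0.198) in poor tumours. A single poor tumour reached into the rich range, and 16 of 17 rich tumours lay above all poor ones. Its log2 fold change was 3.10 ± 0.32, that of Tigit 2.91 ± 0.34 and that of Lag3 1.78 ± 0.26. Tox, a factor of exhausted T cells that other cells also make, had 2.18 to 7.15 CPM in rich and 1.87 to 8.47 in poor tumours, with a log2 fold change of -0.30 ± 0.20.

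All 8 fitted cytotoxic and effector genes had a positive fold change, with a median of 1.68 (log2). The chemokine Ccl5 had 5.20 to 53.7 CPM (median 15.7) in rich and 2.02 to 5.25 (median 3.07) in poor tumours. The granule protease Gzmb had 0.198 to 3.34 CPM (median 1.67) against 0.142 to 0.788 (median 0.414), a much wider overlap. Foxp3, the factor that defines regulatory T cells, was too low to be fitted. It gave 109 counts over the rich tumours and 20 over the poor, 6 of which had none, and a library without a count allows up to 3 counts. Natural killer cell receptors were low throughout. Ncr1 gave 94 and 50 counts and Klrb1c 174 and 182 over the rich and poor tumours, and neither was fitted. Zbtb16, the factor of NKT cells, was the only fitted gene of that list and the source of most of its sum. It had 5.81 to 33.9 CPM (median 13.7) in rich and 16.6 to 32.5 (median 26.0) in poor tumours, with a log2 fold change of -0.39 ± 0.13 (adjusted p = 0.0752, edgeR), and DESeq2 called it lower (adjusted p = 0.0442). Sorted T cells had a median of 3.54 CPM.

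**Figure D2:**
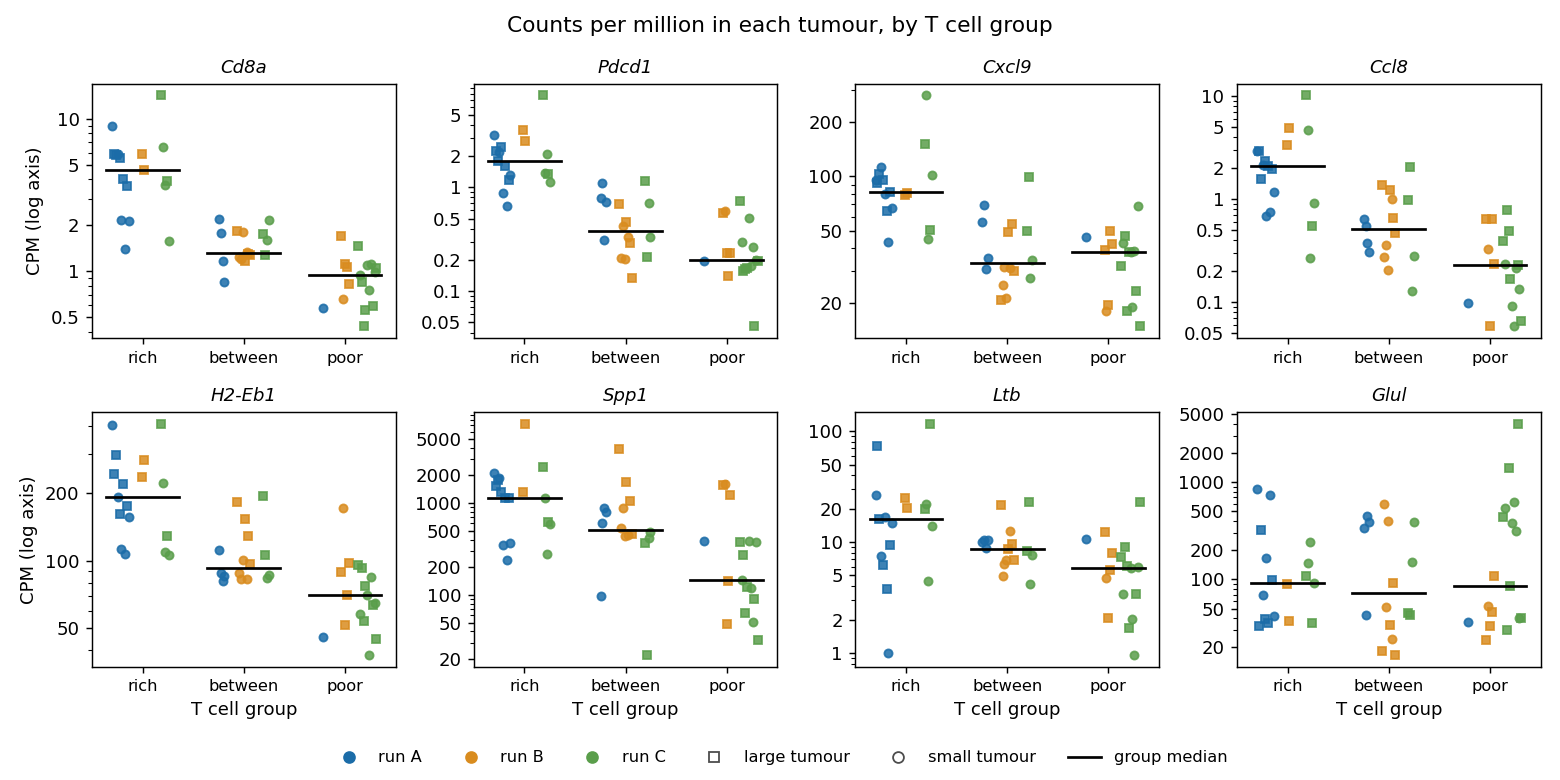
CPM (log axis) of 8 genes in each of the 50 tumours, by T cell group. Points are tumours, colours sequencing runs, squares large and circles small tumours, and black lines group medians. Cd8a and Pdcd1 separate nearly all rich from poor tumours, Cxcl9, Ccl8, H2-Eb1, Spp1 and Ltb shift with overlap, and Glul has medians of 92.4, 72.0 and 84.9 in the rich, intermediate and poor tumours, with the 2 highest tumours in the poor group.

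The remaining lists name other cells or responses, and their genes were tested. T cell attracting chemokines and their receptors were higher in T-cell-rich tumours for 12 of 15 tested genes, against 4.74% of all genes, and their median log2 fold change was 1.34. Of the 10 that were not below the filter's level in most poor tumours, 7 were higher. In run C alone 10 of 14 passed and without run A 12 of 15. Among these Cxcr6 and Cxcr3 are receptors that T cells carry, and Ccl3 and Ccl4 are also made by T cells. Cxcl9, released by macrophages and other cells under interferon gamma, had 43.5 to 282 CPM (median 82.3) in rich and 14.8 to 68.2 (median 38.3) in poor tumours, and every rich tumour lay above the poor median. Its log2 fold change was 1.40 ± 0.25 (adjusted p = 0.00045, edgeR), with 5.83 CPM at the median in sorted T cells. Cxcl10 rose by 1.22 ± 0.20 and Cxcl16, the ligand of Cxcr6, by 0.81 ± 0.17. Cxcl9 did not pass without the 5 tumours highest in B cell markers (0.91, adjusted p = 0.069, edgeR).

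Ccl8, a chemokine of monocytes and macrophages that attracts T cells and monocytes, had the largest positive fold change of all tested genes. That is a description, since 15 of 17 rich tumours but only 1 poor tumour reached the filter's level. Ccl8 lay at 0.269 to 10.2 CPM (median 2.11) in rich and 0.0577 to 0.778 (median 0.229) in poor tumours, which overlapped in the low rich tumours. The log2 fold change was 3.45 ± 0.40, and 3.45 without run A. It was too low to be fitted in run C alone and without the 5 tumours highest in B cell markers. In sorted T cells the median was 0.146 CPM. Ccl22, a dendritic cell chemokine whose receptor is found on regulatory T cells, had a log2 fold change of 1.94 ± 0.30 and Ccl3 one of 1.55 ± 0.25, and both were likewise below that level in most poor tumours. Ccl2 and Ccl4 rose by 1.34 and 1.33. Cxcl11 and Cxcl12 had log2 fold changes of -0.24 ± 0.17 and 0.18 ± 0.25 and did not pass.

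All 10 MHC class II genes were higher in T-cell-rich tumours, with log2 fold changes from 1.15 to 1.59 and a median of 1.36. Leaving out H2-Oa and H2-DMb2, which were below the filter's level in most poor tumours, 8 of 8 were higher, with a median of 1.32. H2-Eb1, a class II beta chain, had 106 to 408 CPM (median 192) in rich and 38.1 to 172 (median 70.4) in poor tumours. A poor tumour of 172 CPM overlapped with the rich range, and 16 of 17 poor tumours lay below every rich one. The rise was 1.44 ± 0.20 (adjusted p = 1.4e-05, edgeR). Ciita, the factor that switches class II genes on, had 6.14 to 27.8 CPM (median 10.9) in rich and 2.89 to 9.92 (median 4.49) in poor tumours and rose by 1.43 ± 0.20. H2-Oa and H2-DMb2, which help or hinder peptide loading, had log2 fold changes of 1.59 ± 0.32 and 1.57 ± 0.27. Sorted T cells had a median of 84.6 CPM of H2-Eb1 and 27.7 of Ciita. In run C alone 7 of the 10 genes passed, with a median of 1.34, and without run A all 10 did.

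Class I genes passed in part. Of 13 tested, 7 were higher and the median log2 fold change was 0.33. Run C alone gave 5 and the fit without run A 6. Those that rose belong mostly to peptide supply. Tap1 and Tap2, the peptide transporter, rose by 0.66 ± 0.10 and 0.43 ± 0.09, and Psmb8, Psmb9 and Psmb10, the immunoproteasome subunits, by 0.56 ± 0.10, 0.72 ± 0.12 and 0.33 ± 0.10. Nlrc5, the class I activator, rose by 0.51 ± 0.13. The classical heavy chains H2-K1 and H2-D1 had log2 fold changes of 0.11 ± 0.09 and 0.17 ± 0.09 and the light chain B2m 0.05 ± 0.10, none past the threshold. The class I heavy chains are near-identical copies of each other, so reads that fit several of them are lost and their values are uncertain.

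Interferon gamma response genes were higher for 12 of 14 tested, with a median of 0.83. The fit in run C alone called 6 and that without run A 11. Of the 13 genes that were not below the filter's level in most poor tumours, 11 were higher in the main fit. The guanylate-binding proteins Gbp2 and Gbp4, defence genes against intracellular microbes, rose by 1.78 ± 0.24 and 1.47 ± 0.21, and Socs1, the feedback inhibitor of the pathway, which was below the filter's level in 9 of 17 poor tumours, had a log2 fold change of 1.62 ± 0.27. Type I interferon genes passed less often, 3 of 14 with a median of 0.33, 1 of 14 in run C alone or without run A, and the difference between both lists was not tested. Mx1 rose by 0.84 ± 0.17 and Oasl2 by 0.67 ± 0.18, while Isg15 and Rsad2 had 0.18 ± 0.15 and 0.10 ± 0.15. Many genes answer to both interferons.

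Among other genes, Tgtp1, a T cell specific GTPase that interferon gamma induces in many cells, had 3.95 to 25.0 CPM (median 9.31) in rich and 0.707 to 4.03 (median 1.64) in poor tumours and rose by 2.53 ± 0.29. Ubd, a ubiquitin-like protein induced by inflammatory cytokines, had 4.94 to 63.7 CPM (median 13.2) against 0.723 to 17.6 (median 4.35) and rose by 2.08 ± 0.42. Sorted T cells had medians of 3.30 and 0.193 CPM of these genes. Cpxm1, a carboxypeptidase-like secreted protein, had 2.57 to 32.0 CPM (median 11.4) against 0.197 to 18.0 (median 2.24) and rose by 1.85 ± 0.44, with 1.70 in run C alone (adjusted p = 0.0708, edgeR). Tgtp1 has a near-identical neighbour, so its counts are uncertain.

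Of 9 tested ligands of checkpoint receptors, 3 were higher, with a median of 0.42. Cd274, which encodes PD-L1, the ligand of PD-1, had 5.40 to 18.6 CPM (median 8.94) in rich and 3.49 to 7.88 (median 5.21) in poor tumours, with 11 of 17 rich tumours above every poor one. It rose by 0.91 ± 0.17 (adjusted p = 0.00053, edgeR) and by 1.01 in run C alone (adjusted p = 0.031, edgeR). Without the 5 tumours highest in B cell markers its log2 fold change was 0.56 (adjusted p = 0.074, edgeR). Cd80, a ligand of CD28 and CTLA-4, rose by 0.91 ± 0.20 and Tnfrsf14, the ligand of BTLA, by 0.47 ± 0.12. Pvr, Nectin2, Lgals9 and Fgl1 had values between -0.22 and 0.12 and did not pass.

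**Figure D3:**
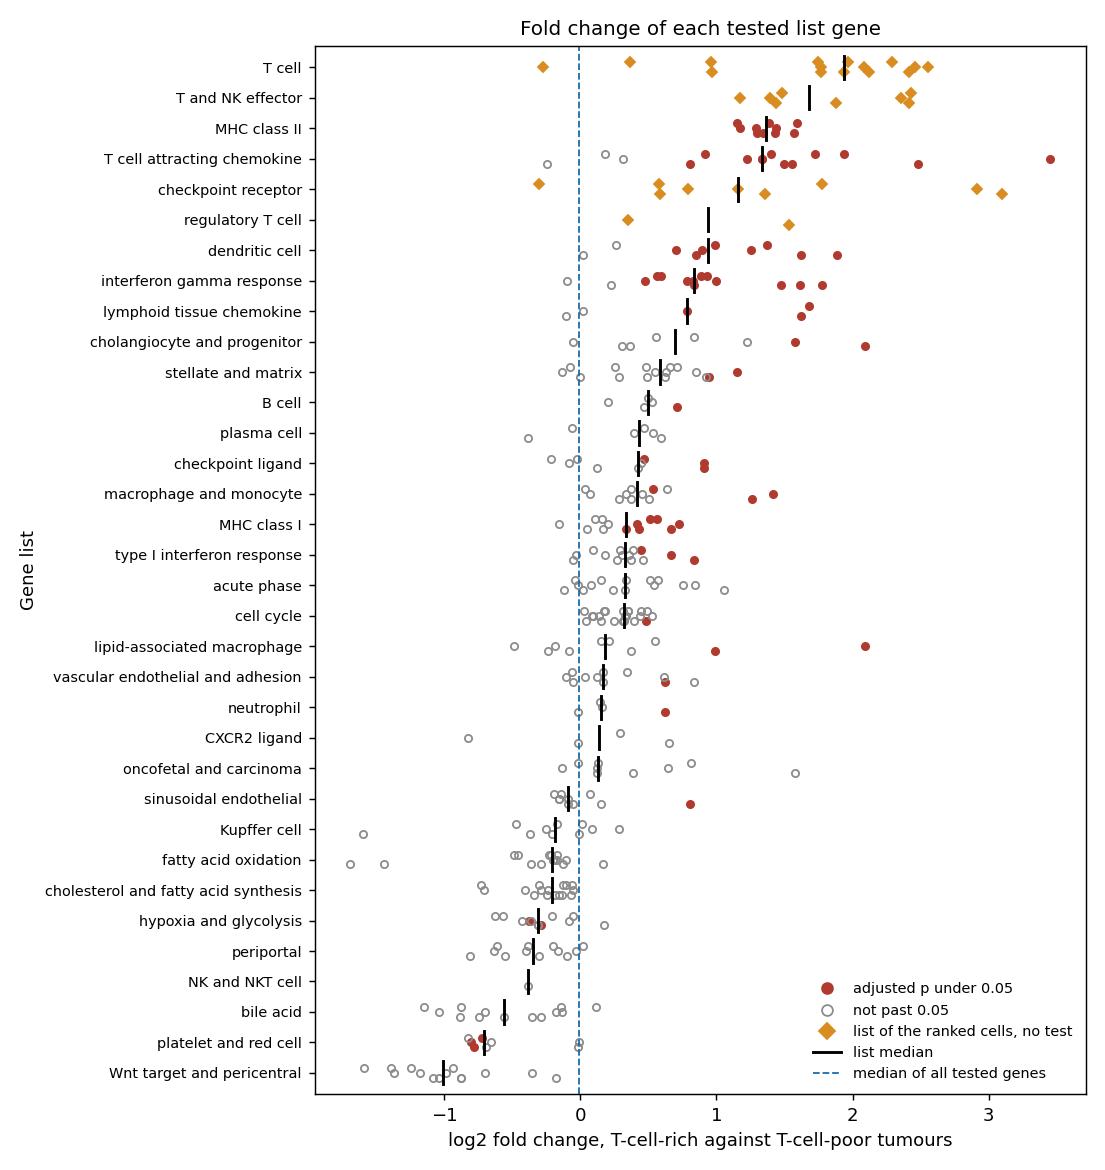
Log2 fold change of each tested gene between T-cell-rich and T-cell-poor tumours, by gene list, ordered by the list's median (black bar). Red points passed an adjusted p of 0.05, open points did not, orange diamonds are lists of the ranked cells and carry no test, and the dashed line is the median of all tested genes at -0.01. All 10 MHC class II genes and 12 of 15 T cell attracting chemokines and receptors are red and to the right. Leaving out genes below the filter's level in most poor tumours, these counts are 8 of 8 and 7 of 10. The Wnt and pericentral list lies to the left without a gene past the threshold.

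Markers of dendritic cells, which carry antigen to T cells, were higher for 8 of 10 tested genes, with a median of 0.94, and for 6 of the 8 that were not below the filter's level in most poor tumours. In run C alone 4 of 11 passed and without run A 8 of 11. Flt3, the growth factor receptor of dendritic cells, had 1.24 to 6.00 CPM (median 2.39) in rich and 0.235 to 1.47 (median 0.788) in poor tumours and rose by 1.88 ± 0.24. Cd209a, of monocyte-derived and conventional type 2 cells, rose by 1.37 ± 0.25 and Clec9a, of conventional type 1 cells, by 0.85 ± 0.22. Siglech, of plasmacytoid cells, reached the filter's level in 3 poor tumours and had a log2 fold change of 1.63 ± 0.31. Siglech had 89.6 CPM at the median in sorted T cells, above its 1.30 in rich tumours. Summed dendritic markers ranged from 40.7 to 123 CPM in rich and from 26.6 to 108 in poor tumours, so the groups overlapped.

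Macrophage and monocyte markers passed for 3 of 12 genes, with a median of 0.41, and for 2 in run C alone or without run A. Of the 11 genes that were not below the filter's level in most poor tumours, 2 passed in the main fit. The rise was 1.26 ± 0.22 for Ms4a7 and 0.54 ± 0.15 for the complement gene C1qa. The monocyte marker Ly6c2, below the filter's level in most poor tumours, had 1.42 ± 0.30, while the pan-macrophage genes Adgre1 and Cd68 had 0.37 ± 0.17 and 0.34 ± 0.16. None of the 10 Kupffer cell markers passed in edgeR. Their median was -0.19, 1 had an unadjusted p under 0.05, and DESeq2 called 1 lower. That gene, Cd163, a scavenger receptor, had 0.0651 to 2.24 CPM (median 0.629) in rich and 0.0778 to 12.5 (median 1.49) in poor tumours, with a log2 fold change of -1.60 ± 0.50 (adjusted p = 0.0555, edgeR). Clec4f, the marker most specific to Kupffer cells, had medians of 65.0 and 66.8 CPM. In liver tissue it had 166 to 389 CPM (median 269), and every rich and poor tumour lay below that range.

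B cell genes and genes of lymphoid aggregates moved in part. Ccr7, the receptor that brings naive T cells and dendritic cells into lymphoid tissue, had 1.16 to 5.94 CPM (median 2.80) in rich and 0.346 to 1.70 (median 0.853) in poor tumours and rose by 1.62 ± 0.22. Ltb, a cytokine that organises lymphoid tissue, had 0.995 to 117 CPM (median 16.0) against 0.960 to 23.0 (median 5.89) and rose by 1.68 ± 0.47, with nearly full overlap. Cxcl13, the chemokine of B cell follicles, had a log2 fold change of 0.02 ± 0.43. Of 5 tested B cell genes only Cd22 passed, at 0.71 ± 0.20, and Cd79a, a chain of the B cell receptor complex, had 0.47 ± 0.39. None of 6 plasma cell genes passed in edgeR or DESeq2 or had an unadjusted p under 0.05.

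Spp1, which encodes osteopontin and is made by bile duct cells, some macrophages and tumour cells, had 241 to 7309 CPM (median 1139) in rich and 32.5 to 1617 (median 145) in poor tumours. Every rich tumour lay above the poor median, and the groups overlapped. The rise was 2.09 ± 0.47 (adjusted p = 0.0052, edgeR), and 2.31 in run C alone. Cd24a, a surface protein of progenitor and immature cells, rose by 1.58 ± 0.36. Other bile duct markers did not pass, with 0.56 ± 0.69 for Krt19 and 1.22 ± 0.57 for Epcam. Lipid-associated macrophage genes passed for 2 of 10, Spp1 and Itgax, while Trem2 and Gpnmb had 0.55 ± 0.31 and 0.21 ± 0.49. Both Spp1 and Cd24a failed the threshold without the 5 tumours highest in B cell markers, at 1.59 and 0.90 with adjusted p = 0.17 and 0.35 (edgeR).

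Of 16 stellate cell and matrix genes 2 rose, the microfibril gene Fbn1 by 0.94 ± 0.24 and the growth factor receptor Pdgfra by 1.15 ± 0.33, and the list median was 0.59. Without run A none of the 16 passed in edgeR. Icam1, an adhesion molecule that T cells bind, was the only one of 11 vascular genes that rose, by 0.62 ± 0.15. Flt4, the receptor of lymphatic and sinusoidal endothelium, was the only one of 10 sinusoidal genes, at 0.81 ± 0.23. Of 10 neutrophil genes 4 were tested and only Csf3r passed, at 0.62 ± 0.17, while S100a8 had 0.16 ± 0.29. Over all tested genes 4.74% were higher, so such small counts say little about these cells. None of the 4 ligands of the neutrophil receptor CXCR2 passed in edgeR or DESeq2, and 2 had an unadjusted p under 0.05, 1 in each direction. Cxcl1 had 10.5 to 69.9 CPM in rich and 7.26 to 48.2 in poor tumours. Cxcr2 itself gave 124 and 100 counts over the groups and was not fitted.

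The 94 lower genes had a median log2 fold change of -0.29. Cyp2c67, a cytochrome P450, had the largest fall of the named genes past the threshold, 1.27 ± 0.39 (adjusted p = 0.0496, edgeR). It had 6.30 to 88.6 CPM (median 28.0) in rich and 4.81 to 101 (median 29.3) in poor tumours, so the groups overlapped almost fully. It did not pass without terms for run and size (-0.25, adjusted p = 0.651, edgeR) or in run C alone (-1.39, adjusted p = 0.106, edgeR). Lpin1, a phosphatidate phosphatase of lipid synthesis, had 79.1 to 186 CPM (median 115) in rich and 104 to 393 (median 195) in poor tumours, and each rich tumour lay below the poor median. It fell by 0.61 ± 0.14 on the log2 scale. The urate oxidase Uox fell by 0.60 ± 0.18. The haemoglobin genes Hbb-bs, Hbb-bt and Hba-a2 fell by 0.72 ± 0.21, 0.78 ± 0.21 and 0.80 ± 0.23; red cells are their source. Hbb-bs had 73.7 to 280 CPM (median 167) in rich and 118 to 801 (median 321) in poor tumours. Haemoglobin genes come in near-identical copies and their values are uncertain. In run C alone the 3 genes had -0.51 to -0.58 and none passed in edgeR. Of 12 genes of hypoxia and glycolysis Vegfa and Pgk1 fell, against 0.677% of all genes, by 0.38 ± 0.11 and 0.29 ± 0.07. Neither passed in run C alone in edgeR. In the tumours between the groups their slopes on the log2 Cd3 sum were positive, 0.63 ± 0.24 and 0.68 ± 0.22 (adjusted p = 0.723 for both, edgeR).

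Programmes of the tumour cells varied widely within both groups. Wnt targets and pericentral genes, which beta-catenin switches on in a class of liver tumours, had a median of -1.01, with all 14 fits below 0, against 7377 of 13875 over all genes. None passed in edgeR, 3 had an unadjusted p under 0.05, and DESeq2 called 1 lower. Glul, glutamine synthetase, had 33.6 to 843 CPM (median 92.4) in rich and 23.9 to 3989 (median 84.9) in poor tumours, with a log2 fold change of -1.18 ± 0.93 (adjusted p = 0.491, edgeR). Axin2, a direct Wnt target, and Cyp2e1, a pericentral cytochrome P450, had -0.87 ± 0.80 and -0.94 ± 1.04. Cyp2e1 spanned 24.2 to 4598 CPM in rich and 28.7 to 11175 CPM in poor tumours. The 2 tumours highest in Glul, at 3989 and 1397 CPM, were both large, T-cell-poor and of run C, with 113 and 51.9 CPM of the Wnt target Notum. The next 2, at 843 and 732 CPM, were small, T-cell-rich and of run A. Without run C the list's median was 1.27, so its sign rests on that run.

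Afp, the fetal albumin relative used as a marker of liver cancer, had 6.80 to 845 CPM (median 205) in rich and 24.8 to 436 (median 189) in poor tumours, with a log2 fold change of 0.64 ± 0.47 (adjusted p = 0.46, edgeR). None of 9 oncofetal genes passed in edgeR or DESeq2 or at an unadjusted p under 0.05. All 24 cell cycle genes had a fit above 0, with a median of 0.32. Only the replication helicase gene Mcm6 passed, at 0.48 ± 0.13, near the share of 4.74% over all genes. In this list 6 genes had an unadjusted p under 0.05. Without the terms for run and size 13 of these 24 passed. Fatty acid oxidation genes had a median of -0.21, with 15 of 16 fits below 0, and cholesterol and fatty acid synthesis genes the same median, with all 16 below 0. None of either list passed in edgeR or DESeq2, and 2 of each had an unadjusted p under 0.05. Periportal genes, of amino acid and glucose metabolism, had a median of -0.35 with 11 of 12 fits below 0, and bile acid genes one of -0.56 with 12 of 13 below 0. None of these passed in edgeR or DESeq2, 3 and 1 had an unadjusted p under 0.05, and without run C the bile acid median was 0.53. Acute phase genes, the liver's response to inflammation, had a median of 0.33, with none of 15 past the threshold in edgeR, 1 higher in DESeq2 and 2 at an unadjusted p under 0.05.

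Large and small tumours were also fitted apart. Among large tumours 459 genes were higher and 99 lower in the rich group. Among small tumours, with 8 rich and 7 poor, none passed in edgeR and 1228 had an unadjusted p under 0.05. The interaction with size called none of 13875 genes, with 819 at an unadjusted p under 0.05, so a difference between sizes was not detected. Pdcd1 had a log2 fold change of 3.69 in large and 2.41 in small tumours, and H2-Eb1 1.66 and 1.30.

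The tumours between the groups were ranked with the others and fell in neither group, while the liver tissue was not ranked. In both sets each gene was fitted against the log2 Cd3 sum. The slope is the log2 change per doubling of that sum. In the 16 tumours between, whose sums span only 2.01 to 3.79 CPM, none of 14599 genes passed in edgeR, 943 had an unadjusted p under 0.05, and DESeq2 called 11, all lower. The 95% Poisson bounds of the Cd3 sum were 1.35 to 2.87 CPM in the lowest of these tumours and 2.84 to 4.96 in the highest. Pdcd1 and Cd8a had slopes of 1.24 ± 0.85 and 0.53 ± 0.45 there and did not pass either. Counting error covers much of this range, so these fits cannot decide whether a gene follows the Cd3 sum. Of the genes higher in the rich group, 290 of 654 had a positive slope, 44.3%, against 52.1% of all genes. List medians went both ways there. They were 0.36 for class II and 0.05 for interferon gamma response genes, -0.04 for T cell attracting chemokines, -0.22 for class I, -0.25 for dendritic cell and -0.53 for macrophage genes, with none past the threshold in edgeR.

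The 15 liver tissue libraries had Cd3 sums from 0.878 to 10.5 CPM. The 3 highest, at 4.82 to 10.5 CPM, were tissue libraries 1 to 3 of run A. Of 14429 genes 604 rose (4.19%) and 661 fell (4.58%) with the sum, 8.77% in all. Of 647 genes that were higher in rich tumours and tested in tissue, 566 had a positive slope, 87.5% against 52.4% of all genes, and 102 passed. Those 102 are 15.5% of the genes higher in rich tumours and 16.9% of the genes that rose in tissue. Of the 94 lower genes 84 had a negative slope and 23 passed. Among the named genes 49 of 53 that were higher in rich tumours had a positive slope and 22 passed. These counts, over all and over named genes, include T cell, effector and checkpoint receptor genes, which measure the ranked cells.

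In tissue too Ccl8 had the steepest slope of the named genes, 2.31 ± 0.20 (adjusted p = 0.000101, edgeR). It rested on 113 counts, with 0 to 4.98 CPM and 3 libraries without a count, and was too low to be fitted without run A or without tissue libraries 2 and 3. Ubd had 1.19 ± 0.19, Gbp4 0.62 ± 0.10, Cxcl9 0.59 ± 0.14, Ciita 0.57 ± 0.11 and Cd274 0.32 ± 0.06, all past the threshold. Class II genes passed for 7 of 10, with a median of 0.53, and cell cycle genes for 16 of 23, with a median of 0.60. Gzmb and Cd209a had slopes of 0.07 ± 0.15 and -0.01 ± 0.21. Among genes of hepatocytes 8 of 12 periportal genes and 9 of 16 fatty acid oxidation genes fell, with medians of -0.33 and -0.13. Slc10a1, the bile acid importer, fell by 0.35 ± 0.07 per doubling and Ass1, of the urea cycle, by 0.40 ± 0.09.

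These tissue calls rest on few libraries. Without tissue libraries 2 and 3, the farthest from the median sum, 7 genes rose and 4 fell, and without libraries 4 to 6, whose neutrophil markers sum to 84.7 to 108 CPM against at most 21.7 in the others, 9 and 3. A positive slope was fitted for 89.1% and 91.3% of the genes higher in rich tumours in those fits, 84.6% without run A and 77.3% in run A alone. Without run A, Cxcl9 and Tgtp1 had slopes of -0.05 and -0.00, so their rise in tissue rests on run A. Run A alone gave 0.84 for Cxcl9 and 0.86 for H2-Eb1 (adjusted p = 0.023 and 0.059, edgeR). Without libraries 4 to 6 Ccl8 had 2.38 (adjusted p = 0.046, edgeR) and Ciita, Cd274, Cxcl9, H2-Eb1, Ubd and Gbp4 did not pass.

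**Figure D4:**
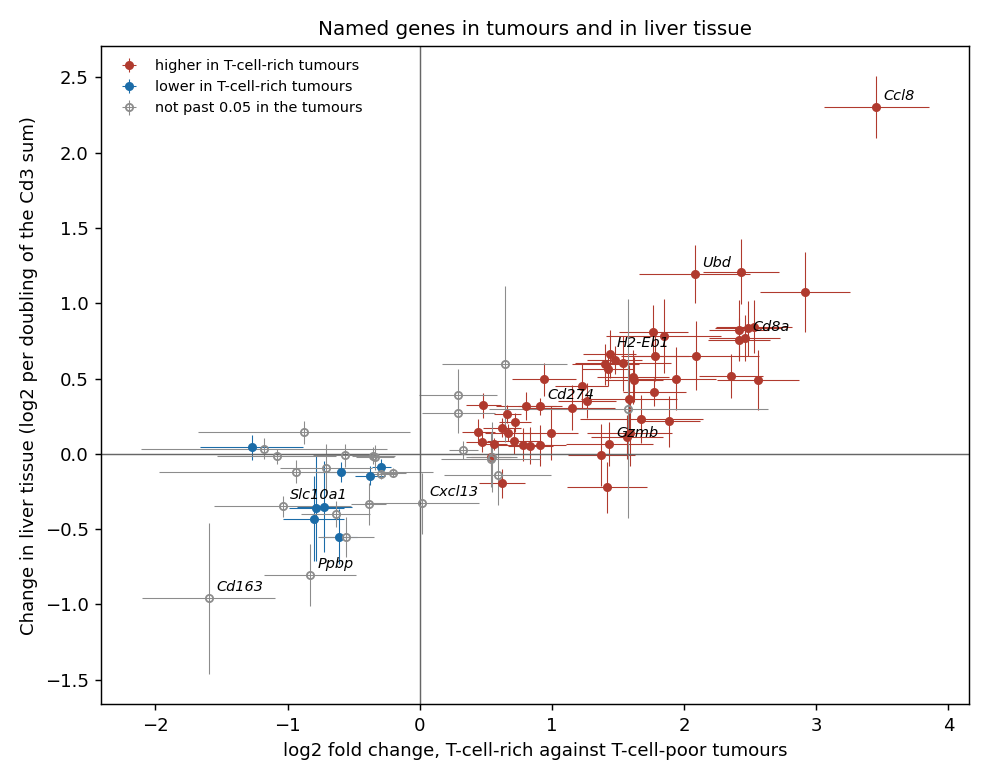
Named genes by their log2 fold change between T-cell-rich and T-cell-poor tumours (horizontal) and by their log2 change per doubling of the Cd3 sum over 15 liver tissue libraries (vertical), with standard errors. Red and blue genes were higher and lower in rich tumours, and open points did not pass there. Of the red genes 49 of 53 lie above the horizontal line, with Ccl8 highest at 2.31. The red genes include T cell, effector and checkpoint receptor genes, which measure the ranked cells.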

How the data were processed

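Whole tissue was sequenced from stranded mRNA libraries and sorted cells from total RNA libraries for low input, per the labels' protocols. The authors deposited raw counts per gene in 1 table of 37713 Ensembl genes, and 37607 were matched to a symbol. Alignment with HISAT2 2.1.0 and counting with HTSeq 0.11.2 on GRCm38, after Trim Galore 0.6.4 and FastQC 0.11.8, are named in the submitters' processing notes. Strand setting and annotation release are not given in the sources used here; counts of overlapping genes are uncertain. The 5 HTSeq summary entries, 55.9% of entries in whole tissue, were left out.

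Tumours were ranked by the Cd3 sum in CPM. Fits used edgeR 4.0.16 in R 4.3.3 (TMM, filterByExpr with a minimum count of 10 and total of 15, robust quasi-likelihood, Benjamini-Hochberg adjustment at 0.05), with run and size as terms, and were tested on simulated data. Values after ± are standard errors, derived from the fold change and F. The groups were made from the same libraries that the fits use. Members, gene lists and tests were chosen with earlier results of these data known. By rule, the genes to name were a set of 16, then per list at most 3 genes past the threshold, by size of change (or the 2 of smallest p), and the 6 strongest risers and fallers reaching 10 CPM on average; the text prints part of them. Further list members, such as Ccl2 and Ccl3, and the ratios of counts were chosen after their values were seen. Promoter windows came from RefSeq. No tumour library was a copy of another (chi-square per degree of freedom at least 3.61 in 1225 pairs). Alternatives used DESeq2 1.42.0 and the settings named in the closing section, and figures matplotlib 3.10.9.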

Additional observations from a re-analysis of the deposited data

How the results depend on the processing

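The comparison of rich with poor tumours gave 752 genes and 1048 with DESeq2, 723 with RLE factors, 808 without a count filter, 558 in large tumours alone and 582 without run A. It gave 1736 without terms for run and size (1125 higher, 611 lower), 1174 for 12 against 12 tumours, 217 for 25 against 25, 2349 as a slope over all 50 tumours, 440 in run C alone, 493 without run B, 112 without run C, 330 without the tumour with the highest Cd3 sum and 175 without the 5 tumours highest in B cell markers. It gave 0 in small tumours alone. Runs A and B alone held too few tumours of 1 group to be fitted. With the title number as a replicate block 0 genes passed on 8 residual degrees of freedom, with 2186 at an unadjusted p under 0.05. The 25 pairs of tumours of the same number correlated by a mean of -0.0956 and other pairs by 0.00519. Of the 25 pairs 5 passed 0.1, and 1 tumour correlated best with its own number. Tumours of 1 mouse need not correlate, so whether a shared number means a shared mouse cannot be decided from these values. None of the 63 named genes that passed changed sign under any setting that fitted it, though these settings share tumours with the main fit. All 63 lost their call with the replicate block, 61 in small tumours alone and 43 without run C. Without the 5 tumours highest in B cell markers 33 did, and for 25 against 25 tumours 32. With DESeq2 and with RLE factors 0 did. Some settings, such as run C alone, left a few of the 63 unfitted, Ccl8 among these.

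In the tumours between the groups 0 genes passed, 11 with DESeq2, 0 with RLE factors, 0 without a filter and 1 without terms for run and size, with 943, 1023, 945, 1278 and 806 at an unadjusted p under 0.05. In liver tissue 1265 genes passed, 4392 without the run term, and, in alternatives chosen after seeing the data, 834 without run A, 11 without libraries 2 and 3, 12 without libraries 4 to 6 and 747 in run A alone. Cd3 sums of 14 to 33 counts in poor tumours limit how finely they can be ranked, and genes under about 1 CPM rest on few counts.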
